A study of Mus musculus with 2 samples.

Results

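The genes described here are 91 genes of the cell cycle, DNA replication and the gene families named with them, of 18193 genes with a single-gene probe set on the array. They were chosen by symbol: Mcm, Cdk, Cdc, Bub, Plk and E2f genes with a number, numbered A, B, D and E cyclins, Aurka and Aurkb, and Mki67, Top2a and Pcna. Where a gene had several probe sets, the one with the highest geometric mean signal over both arrays stood for it and is called the brightest. Liver RNA was compared between mice injected with antagomir-122 and mice injected with mm-antagomir-122, a scrambled control oligonucleotide, each at 80 mg/kg per day on 3 days. An antagomir is a cholesterol-linked, chemically modified oligonucleotide against a microRNA, and miR-122 is the abundant microRNA of hepatocytes. Livers were taken 24 h after the last injection and RNA of 3 livers was pooled, so each group was 1 pool on 1 array, and strain, sex and age were not given in the labels. With 1 array per group there is no replicate error, and the differences below are descriptions of these pools without a test.

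In the cell cycle, D cyclins with Cdk4 and Cdk6, and then E cyclins with Cdk2, release E2F transcription factors from the retinoblastoma proteins, and E2F drives the genes of S phase. Origins are licensed when Cdc6 and its partners load the Mcm2 to Mcm7 helicase, and Cdc45 and Pcna join the forks that follow. A and B cyclins with Cdk1 then drive mitosis, under Polo-like and Aurora kinases, the Bub checkpoint proteins and the anaphase-promoting complex. Adult hepatocytes are mostly quiescent and many are polyploid, and in the mouse E2f7 and E2f8 are needed for that polyploidy.

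The symbols cover more than the cell cycle. By their main known roles 17 of the 91 genes were assigned to G1 and the G1/S transition, 13 to DNA replication and 26 to G2 and mitosis. The Polo-like kinases and the subunits of the anaphase-promoting complex were placed in G2 and mitosis as families, though some also act outside mitosis. A further 14 were transcriptional and other Cdk genes, and 21 had other main roles, among them Cdc42, a small GTPase, with its effectors, and splicing and chaperone genes that keep a Cdc name from yeast.

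Replication genes and mitotic genes carry different promoter elements as a rule, E2F sites in genes of G1/S and replication and the cell cycle homology region (CHR), often with CCAAT boxes, in genes of G2 and mitosis. Promoters from RefSeq (GRCm38.p6), 250 bases before to 50 after the start site, were given for 76 of the 91 genes. The windows below lie before the start site and are written 5′ to 3′ on the strand of the gene. Capitals mark the letters searched, on both strands: TTTGGCGC, TTTCCCGC or TTTCGCGC for E2F in the first 4, and TTTGAA for the CHR core in the last 4. They are shown because the log2 ratios of these phases are compared below.
Mcm5 (chr8:75109335-75109392, + strand): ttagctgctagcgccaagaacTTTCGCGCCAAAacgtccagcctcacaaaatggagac
Mcm6 (chr1:128359720-128359777, - strand): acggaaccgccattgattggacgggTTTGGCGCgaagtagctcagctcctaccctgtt
Cdc25a (chr9:109875487-109875544, + strand): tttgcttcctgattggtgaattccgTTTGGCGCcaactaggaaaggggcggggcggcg
Cdk2 (chr10:128705159-128705216, - strand): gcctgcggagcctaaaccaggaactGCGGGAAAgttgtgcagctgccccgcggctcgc
Cdk1 (chr10:69352913-69352952, - strand): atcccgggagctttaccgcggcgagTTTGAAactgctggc
Mki67 (chr7:135716447-135716502, - strand): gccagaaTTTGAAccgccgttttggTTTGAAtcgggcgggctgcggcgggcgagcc
Top2a (chr11:99024190-99024237, - strand): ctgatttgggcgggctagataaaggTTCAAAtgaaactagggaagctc
Cdc20 (chr4:118437344-118437386, - strand): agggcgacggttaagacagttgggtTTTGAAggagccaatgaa

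In the Mcm5 window 2 E2F forms overlap on opposite strands. An E2F form was found in the promoters of 6 of 12 replication genes (50%), 5 of 12 genes of G1 and G1/S (41.7%) and 1 of 22 genes of G2 and mitosis (4.55%), against 2.12% of all 27025 genes with a promoter. The last of these was Cdk1, whose promoter also held the CHR core. The CHR letters were found in 10 of 22 genes of G2 and mitosis (45.5%), 3 of 12 replication genes and 3 of 12 genes of G1 and G1/S (25% each), against 20.2% of all genes. CCAAT was found in 10 of 12 replication genes (83.3%) and 16 of 22 genes of G2 and mitosis (72.7%), against 41.1% of all genes. Base composition was not matched, and a match is a description of the letters, not a binding site.

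The deposited values were MAS5 signals whose 2% trimmed mean was the same on both arrays. The median signal was 172 for the antagomir-122 pool and 156 for the mm-antagomir-122 pool, and the highest were 34477 and 34506. A gene was counted as measured where the geometric mean of its brightest probe set was at or above the 60th percentile of non-control probe sets, a signal of 238, which held for 10003 genes. Of the 91 genes, 64 were above this floor and 27 under it. The spread between the log2 ratios of probe sets of the same gene was 0.28 (SD, 3860 genes), or 1.21-fold, and it was 0.35 over 588 genes of the dimmest class of signal and 0.23 over 1812 genes of the brightest class. This spread leaves out differences between animals. The probe sets for spiked hybridization controls had a median log2 ratio of -0.27 over 18 probe sets, so all directions are relative to the bulk of the genes. Setting the controls equal would raise each log2 ratio by 0.27, and the median of all genes to 0.28. The ratio of 3′ to 5′ probe set signals for Actb was 1.24 on the antagomir-122 array and 1.22 on the mm-antagomir-122 array.

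Most cell cycle genes differed little between the pools. Of the 64 measured genes, 31 had a log2 ratio above 0 and 33 below, with a median of -0.02 against 0.00 for all 10003 genes. At least 1.5-fold higher in the antagomir-122 pool were 5 of the 64 (7.81%, where 5.12% of all genes were), namely E2f5, Cdk16, Cdc42bpa, Cdc42se2 and Cdc27. At least 1.5-fold lower were 0 of 64 (where 2.62% of all genes were). These counts became 4 and 1 with median centring (4% and 3.75% of all genes) and 5 and 1 with quantile normalization (4.58% and 3.22%) or loess correction (4.56% and 3.28%). With scaling on the hybridization controls they were 11 (17.2%, against 16.9% of all genes) and 0 (against 0.63%). The lower gene under the first 3 of these was Plk3. Past 1 spread in either direction were 23 of the 64 genes (35.9%), close to the 35.1% of all genes. The classes split all genes by signal into 3 of near-equal size. The higher genes were 1 of 24 in the dimmest class (8.31% of all genes there), 2 of 23 in the middle class (4.5%) and 2 of 17 in the brightest class (2.55%). The lower genes were 0 in each class, where 4.23%, 2.58% and 1.05% of all genes were lower, from the dimmest class to the brightest. Only 2 of the 5 higher genes encode proteins assigned to a cycle phase, E2f5 and Cdc27, and in both another probe set went the other way.

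**Figure D1:**
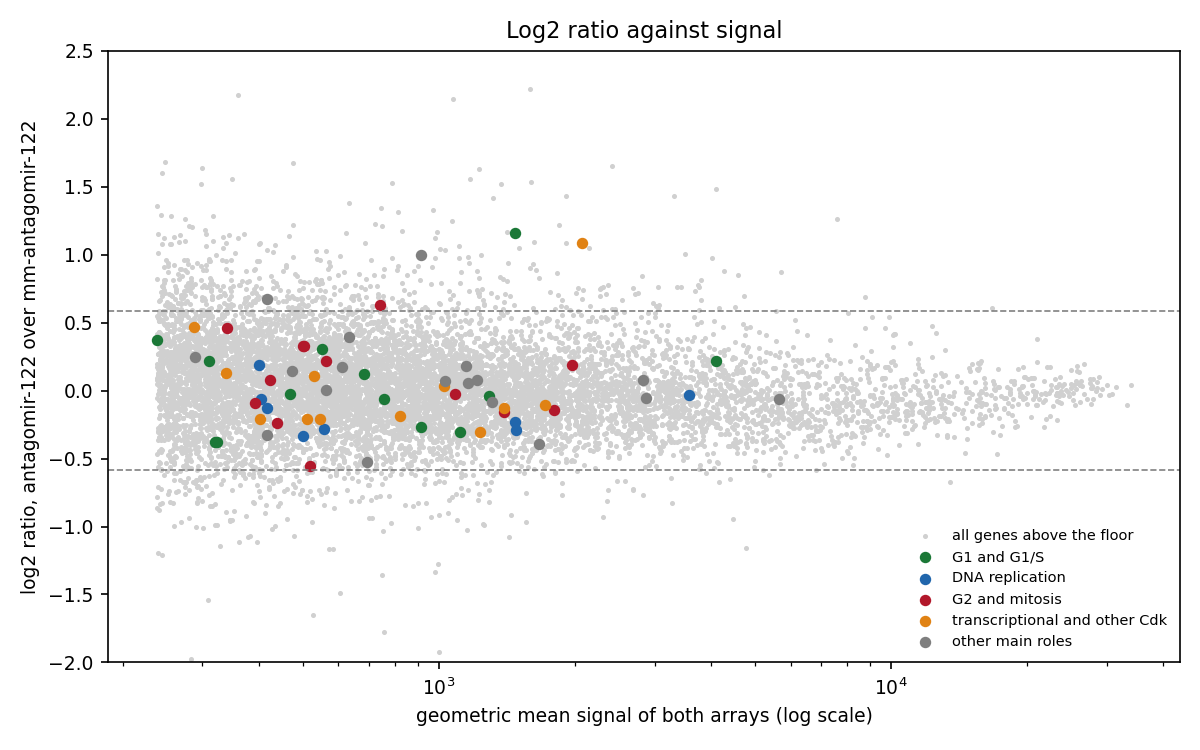
Log2 ratio (antagomir-122 over mm-antagomir-122) against the geometric mean signal of both arrays on a log axis, with all 10003 genes above the floor in grey and the 64 measured genes coloured by role. Dashed lines mark 1.5-fold, 6 grey points lie beyond the vertical axis, and 5 coloured points lie above the upper line and 0 below the lower one.

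The phases were compared by the median log2 ratio of their measured genes. It was -0.02 for 13 genes of G1 and G1/S, -0.18 for 8 replication genes and 0.08 for 13 genes of G2 and mitosis. Replication genes lay between -0.34 and 0.19, inside the range of G2 and mitosis genes, from -0.55 (Plk3) to 0.63 (Cdc27), so the groups overlapped. The median of G2 and mitosis minus that of replication was 0.26 as deposited. Of 10 alternatives run, median centring and hybridization control scaling shift every gene alike and cannot alter it. Under the other 8 it lay from 0.07 with a floor at the 40th percentile to 0.41 without suffixed probe sets. The latter left 11 genes of G2 and mitosis and 4 of replication. The median of G2 and mitosis minus that of G1 and G1/S was 0.10 as deposited, but -0.07 with a floor at the 40th percentile, -0.02 with no floor, -0.03 with the mean over probe sets and -0.08 with quantile normalization. The median of transcriptional and other Cdk genes was -0.12 (12 genes), and that of the genes with other main roles was 0.08 (18 genes).

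**Figure D2:**
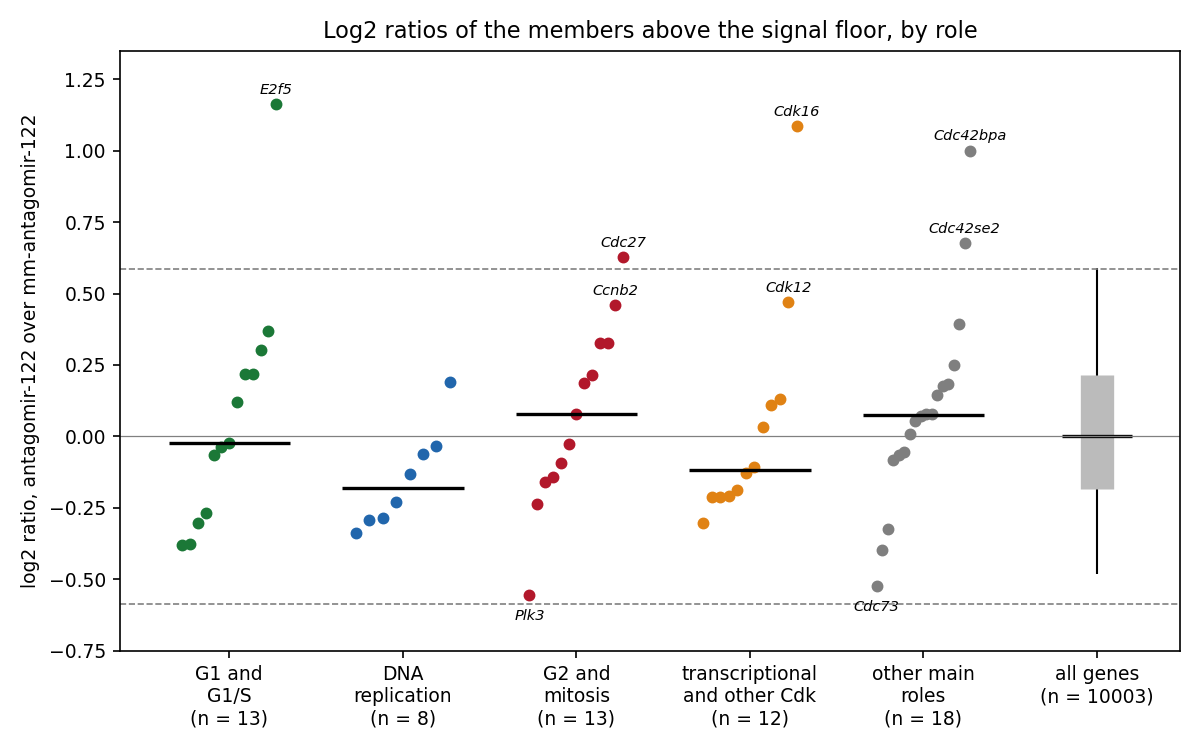
Log2 ratios (antagomir-122 over mm-antagomir-122) of the measured genes in 5 role groups, with 1 point per gene, a black bar at the group median and dashed lines at 1.5-fold. For all 10003 genes the grey box spans the 25th to 75th percentile (-0.19 to 0.21) and the line the 5th to 95th (-0.48 to 0.59). In the replication group 7 of 8 points lie below 0.

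Among G1 genes the D cyclins, partners of Cdk4 and Cdk6, were close to equal between the pools. Ccnd1 had signals of 4416 in the antagomir-122 pool and 3799 in the mm-antagomir-122 pool, a log2 ratio of 0.22, with 0.14 on each of its other probe sets. Ccnd2 had 714 and 656, and Ccnd3 had 1276 and 1309, log2 ratios of 0.12 and -0.04. The kinase genes were on the other side of 0 on their brightest probe sets: Cdk4 had 832 in the antagomir-122 pool and 1001 in the mm-antagomir-122 pool (log2 -0.27), and Cdk6 had 1002 and 1235 (log2 -0.30). The other probe sets of Cdk4 had -0.08 and -0.29, and that of Cdk6, nearly as bright, had 0.13. With quantile normalization the second stood for Cdk6, at 0.12, so its direction depended on the probe set. For the G1/S step, Cdk2 had 739 in the antagomir-122 pool and 773 in the mm-antagomir-122 pool, and its activating phosphatase gene Cdc25a had 465 and 472. These differ by less than 1 spread.

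Ccne1, the cyclin that activates Cdk2, gave opposite readings. Its brighter probe set had 281 in the antagomir-122 pool and 364 in the mm-antagomir-122 pool, a log2 ratio of -0.38. Its other probe set had 417 and 183, at least 1.75-fold higher against the floor, and carries the suffix _x. The suffixes _s and _x mark probe sets that can match transcripts of other genes, and _a marks those that match several transcripts of 1 gene. No direction can be given for Ccne1. Ccne2 was under the floor at 99.7 and 133.

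The E2f genes include activators (E2f1 to E2f3) and repressors of cell cycle promoters (E2f4 to E2f8). E2f5, which acts as a repressor with the pocket proteins, had 2208 in the antagomir-122 pool and 987 in the mm-antagomir-122 pool, 2.24-fold higher and the highest log2 ratio of the 64 genes (1.16). Its other probe sets had 740 and 812, and 598 and 615, log2 ratios of -0.13 and -0.04, so the difference rested on 1 of 3 probe sets and the mean over them was 0.33. E2f4, the main repressor E2F of quiescent cells, had 612 and 496 (log2 0.30), and E2f3 had 335 and 288 (log2 0.22). E2f6, which represses without pocket proteins, had 283 and 368 (log2 -0.38). E2f7 had 271 in the antagomir-122 pool and 210 in the mm-antagomir-122 pool, at least 1.14-fold higher against the floor. E2f1 had 247 and 178, at least 1.04-fold higher. Its other probe sets, under the floor in both pools, had 43.6 and 87.9, and 13.7 and 21.3. E2f8 was under the floor in both pools at 58.6 and 136. E2f5 apart, no E2f gene above the floor was past 1.5-fold.

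As deposited, replication genes leaned to the lower side in the antagomir-122 pool. Of the 8 measured genes, 7 had a log2 ratio below 0, as did 4965 of all 10003 genes. Past 1.5-fold in either direction were 0 of the 8. The count below 0 was 6 with quantile normalization or loess correction and 8 with the mean over probe sets. It was 3 with scaling on the hybridization controls. Mcm6, a subunit of the helicase, had 447 in the antagomir-122 pool and 564 in the mm-antagomir-122 pool, a log2 ratio of -0.34, and its other probe set was at least 1.44-fold lower (log2 -0.54 as deposited). Mcm7 had 1339 and 1640 (log2 -0.29), with other probe sets at -0.55, 0.17 and 0.03. Mcm3 had 504 and 614 (log2 -0.29), with another probe set at -0.08. These 3 subunits were past 1 spread over all genes on their brightest probe sets, but Mcm6 and Mcm3 were within the spread of their own signal classes, 0.35 in the dimmest and 0.30 in the middle class. Mcm5 had 399 and 437 (log2 -0.13) and Mcm4 had 397 and 414 (log2 -0.06), but the other probe set of Mcm4, with the suffix _x, had 248 and 405 (log2 -0.71). Mcm2 had 428 in the antagomir-122 pool and 375 in the mm-antagomir-122 pool (log2 0.19), and its other probe set had 323 and 414 (log2 -0.36). The brightest probe sets of Mcm2, Mcm3 and Mcm7 carry the suffix _s, and that of Mcm5 the suffix _x.

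Taken over all their measured probe sets, the 6 helicase subunits had 10 of 13 below 0, from -0.71 to 0.19, with a median of -0.29. These are not independent readings, since Mcm7 alone has 4 of them, and the share below 0 over all measured probe sets was not counted. Of the 6 genes, 5 were below 0 as deposited, with quantile normalization and with loess correction. All 6 were with the mean over probe sets, and 3 were with scaling on the hybridization controls. Their median minus that of all genes was -0.21 both as deposited and on the hybridization controls, since that scaling shifts every gene alike. Mcm10, which helps to start the forks, had 1361 in the antagomir-122 pool and 1596 in the mm-antagomir-122 pool (log2 -0.23). Pcna, the sliding clamp, had 3540 and 3620 (log2 -0.03), on 1 probe set. The loading factor Cdc6 was under the floor in both pools at 10.6 and 58, and Cdc45 at 188 and 140.

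**Figure D3:**
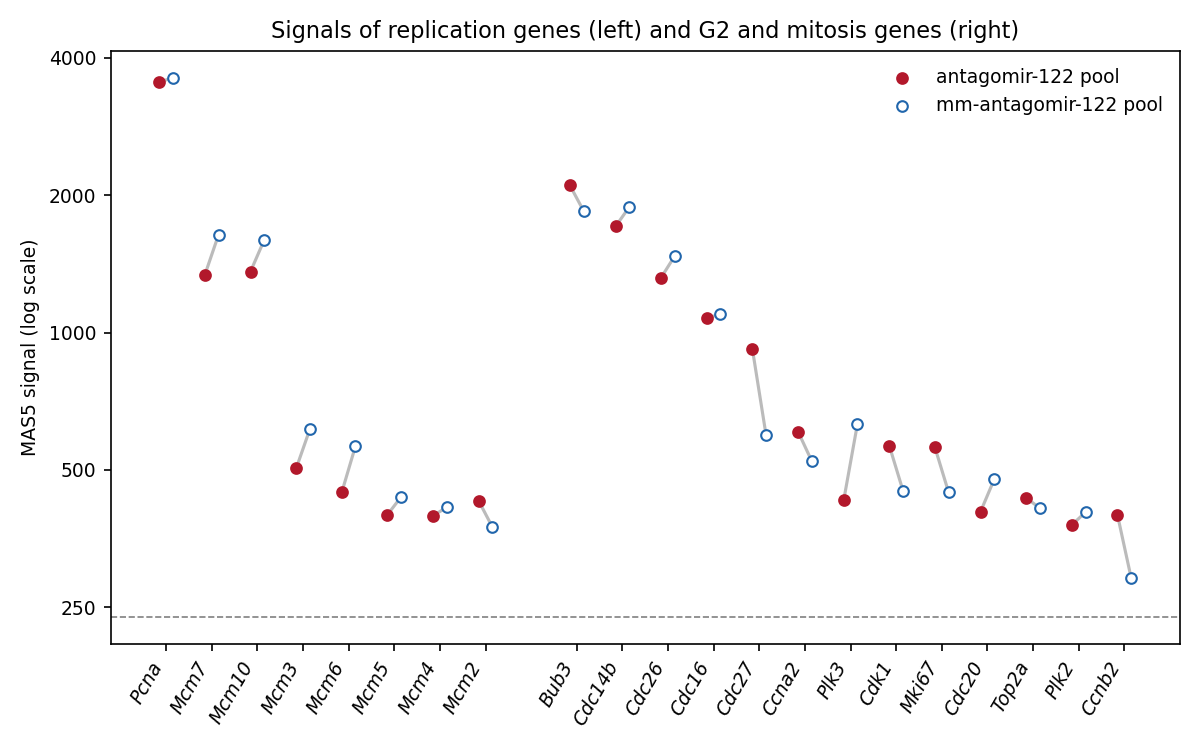
MAS5 signals on a log axis of the 8 measured replication genes (left) and the 13 measured genes of G2 and mitosis (right), with filled points for the antagomir-122 pool and open points for the mm-antagomir-122 pool, 1 array each. The dashed line is the floor of 238, and signals of different probe sets cannot be set against each other. Mcm2 is the only replication gene with the filled point above the open one. The filled point is above in 7 of the 13 genes of G2 and mitosis, among them Cdk1, Mki67, Ccnb2 and Ccna2.

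Genes of G2 and mitosis were split, with 7 of 13 above 0 (53.8%, against 50.3% of all genes). Cdk1, the mitotic kinase, had 565 in the antagomir-122 pool and 450 in the mm-antagomir-122 pool, a log2 ratio of 0.33. Mki67, which encodes the proliferation marker Ki-67, had 560 and 446, also 0.33. Ccnb2, a B cyclin that partners Cdk1, had 399 and 290, a log2 ratio of 0.46. Each of the 3 was past 1 spread over all genes, but under 1.5-fold, and rested on 1 measured probe set; in the dimmest class, where all 3 lie, the spread was 0.35, and of them only Ccnb2 was past it. Ccna2, the A cyclin of S phase and G2, had 607 and 523 (log2 0.21), with another probe set at -0.06. Top2a, the topoisomerase that untangles replicated DNA, had 435 and 412 (log2 0.08), and Cdc20, an activator of the anaphase-promoting complex, had 405 and 477 (log2 -0.24), with another probe set at 0.12. Of these 6 of the 13 genes, 5 were above 0 and Cdc20 was below, on a probe set with the suffix _x. For Ccna2 and Cdc20 the direction depended on the probe set, and the means over their measured probe sets were 0.08 and -0.06.

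The subunits of the anaphase-promoting complex, the ligase that ends mitosis, are also active in resting cells. Cdc27 had 919 in the antagomir-122 pool and 595 in the mm-antagomir-122 pool, 1.54-fold higher, but its other measured probe sets had 355 and 315 (log2 0.17), and 291 and 382 (log2 -0.39), and the mean log2 ratio over the 3 was 0.14. Cdc16 had 1078 and 1096, and Cdc26 had 1321 and 1474, log2 ratios of -0.02 and -0.16. Bub3, a checkpoint protein, had 2103 and 1848 (log2 0.19), with another probe set at 0.53. The phosphatase gene Cdc14b had 1709 and 1885 (log2 -0.14), with another probe set at 0.30. Of the Polo-like kinases, Plk3, a stress-induced member, had 429 in the antagomir-122 pool and 630 in the mm-antagomir-122 pool, 1.47-fold lower and the lowest log2 ratio of the 64 genes (-0.55). Plk2 had 379 and 404 (log2 -0.09).

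Of the 26 genes of G2 and mitosis, 13 were under the floor, among them defining mitotic kinases. The mitotic kinase gene Plk1 had 147 in the antagomir-122 pool and 251 in the mm-antagomir-122 pool, at least 1.06-fold lower against the floor. Aurka and Aurkb, the Aurora kinases, had 192 and 237, both under the floor, and 250 and 217, at least 1.05-fold higher. The checkpoint kinase genes Bub1 and Bub1b had 88.9 and 98.1, and 56 and 219. The other probe sets of Bub1b went the other way, with 119 and 84.4, and 18.6 and 11. Cdc25b had 264 and 208, at least 1.11-fold higher, and Cdc23 had 210 and 239. Over all 27 genes under the floor, 12 had the higher signal in the antagomir-122 pool and 15 in the mm-antagomir-122 pool, and the 15 genes among them that are not named by the rule had signals from 8.1 to 221. A signal under the floor does not show that a transcript was absent, because no detection calls were used.

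Among transcriptional and other Cdk genes only Cdk16 was past 1.5-fold, and of the 5 higher genes it alone had a second probe set past 1.5-fold too. Cdk16, a PCTAIRE kinase activated by cyclin Y, had 3026 in the antagomir-122 pool and 1426 in the mm-antagomir-122 pool, 2.12-fold higher. Its other measured probe sets had 1535 and 956, and 1540 and 916, 1.61-fold and 1.68-fold higher, so all 3 were past 1.5-fold, and their mean log2 ratio was 0.84. These 3 carry the suffixes _s and _a, and the 2 probe sets without a suffix were under the floor, at 121 and 115, and 57 and 77.7. The related genes Cdk17 and Cdk18 had log2 ratios of -0.13 and -0.19, from signals of 1333 and 1456, and 769 and 875.

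Among the kinases of the transcription machinery, Cdk8 and Cdk12 were past 1 spread over all genes, in opposite directions, each on 1 measured probe set. Cdk9, which releases paused RNA polymerase II, had 1655 in the antagomir-122 pool and 1781 in the mm-antagomir-122 pool (log2 -0.11), and Cdk7, of the Cdk-activating kinase and TFIIH, had 354 and 323 (log2 0.13), with another probe set at -0.36. Of the Mediator kinases, Cdk8 had 1112 and 1373 (log2 -0.30) and Cdk19 had 551 and 510 (log2 0.11). Cdk12 and Cdk13, partners of cyclin K in elongation, had 339 and 245 (log2 0.47), and 1038 and 1015 (log2 0.03). The other probe sets of Cdk12 were under the floor. The brightest of these had 205 and 237 (log2 -0.21), and their log2 ratios lay from -0.28 to 0.06. Cdk5, Cdk10 and Cdk20 each had a log2 ratio of -0.21. In this group 7 of 12 genes were below 0, as were 4965 of all 10003 genes.

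**Figure D4:**
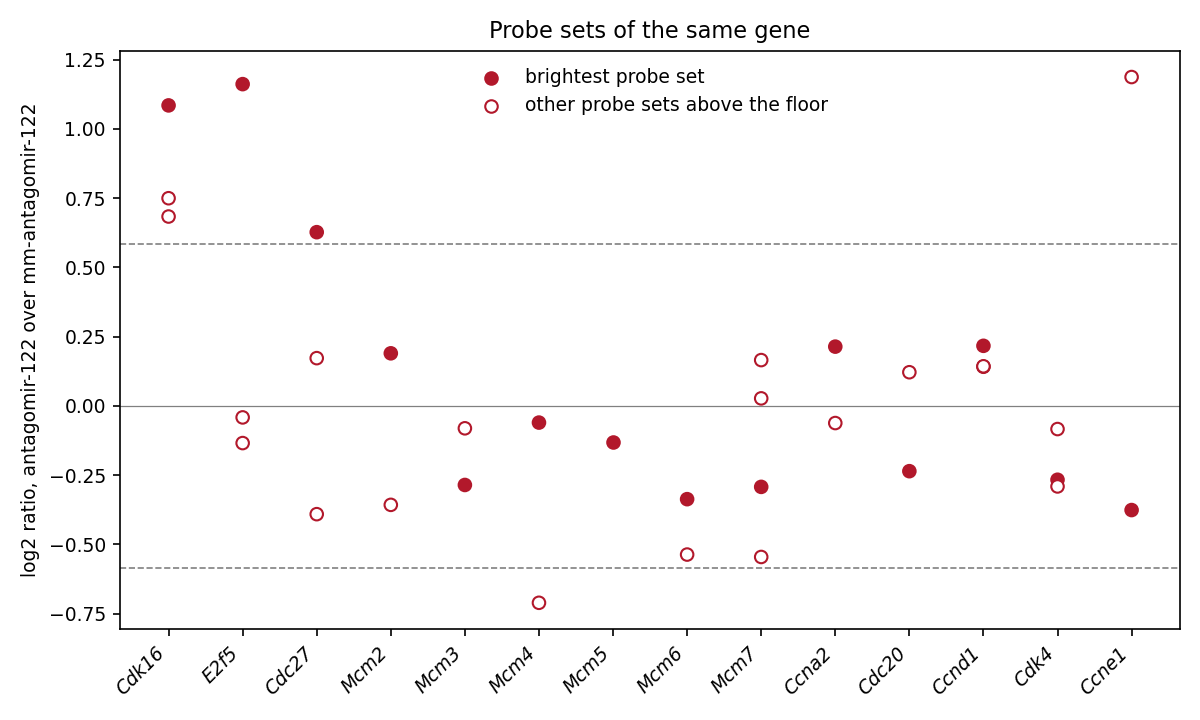
Log2 ratios (antagomir-122 over mm-antagomir-122) of every probe set above the floor for 14 of the genes, with the brightest filled and the others open, and dashed lines at 1.5-fold. The 3 probe sets of Cdk16 all lie above the upper line, while those of E2f5, Cdc27 and Ccne1 lie on both sides of 0.

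Among the genes with other main roles, 12 of 18 were above 0 (66.7%, against 50.3% of all genes). The count was 10 with median centring or with the mean over probe sets. Cdc42 and its effectors made up 10 of the 18. Cdc42 itself, the GTPase of cell polarity and actin, had 5539 in the antagomir-122 pool and 5796 in the mm-antagomir-122 pool (log2 -0.07), with other probe sets at 0.15 and -0.04. Cdc42bpa, a kinase that binds Cdc42, had 1291 and 646, 1.999-fold higher on its only measured probe set, while another just under the floor had 211 and 225. Its remaining probe sets, far under the floor, had 55.8 and 31.6, and 70.8 and 12.7. Cdc42se2, a small Cdc42 effector, had 528 and 330, a log2 ratio of 0.68, on a probe set with the suffix _s. Cdc42se1 had 727 and 554, with log2 ratios of 0.39 and 0.41 on its measured probe sets. The related kinase genes Cdc42bpb and Cdc42bpg had log2 ratios of 0.18 and -0.32, and Cdc42ep1, Cdc42ep2, Cdc42ep4 and Cdc42ep5 lay from 0.01 to 0.25.

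The remaining genes of this group have varied roles, and some, such as Cdc34 and Cdc37, also serve cell cycle proteins. Cdc73, of the Paf1 complex of transcription, had 579 in the antagomir-122 pool and 832 in the mm-antagomir-122 pool (log2 -0.52), and Cdc123, needed to assemble translation factor eIF2 in yeast, had 1456 and 1916 (log2 -0.40). The ubiquitin-conjugating enzyme gene Cdc34 had a log2 ratio of -0.06, and the chaperone gene Cdc37 had 0.08. Its relative Cdc37l1 had 0.18 on the brightest of 4 measured probe sets and -0.14, -0.73 and -0.03 on the others, with a mean of -0.18. The splicing genes Cdc40 and Cdc5l had -0.08 and 0.05, and Mcm3ap, of mRNA export, had 0.14. Of these 8 genes, Cdc73 and Cdc123 were past 1 spread, each on 1 measured probe set. The other probe sets of Cdc73 were under the floor. The brightest of these had 232 and 227 (log2 0.03), and their log2 ratios lay from -0.67 to 0.78.

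A further 94 genes of the cell cycle were chosen from general knowledge, and 67 of 92 with a single-gene probe set were above the floor, with a median log2 ratio of 0.04. At least 1.5-fold higher were 2 of 67 (2.99%, against 5.12% of all genes), and at least 1.5-fold lower 3 of 67 (4.48%, against 2.62%). With signals under the floor set to it, these counts were 1 (1.49%, against 4.54% of all genes) and 3 (against 2.35%). Among 27 licensing and fork factors the median was -0.16, with 16 below 0, as were 4965 of all 10003 genes. Orc1, of the origin recognition complex, had 514 in the antagomir-122 pool and 342 in the mm-antagomir-122 pool, a log2 ratio of 0.59. Fen1, the flap endonuclease, had 196 and 1682, at least 7.06-fold lower against the floor on a probe set with the suffix _x, while its other probe set had 278 and 243 (log2 0.20). Among 20 inhibitors and regulators the median was 0.09. Ccnf, the cyclin of an SCF ubiquitin ligase, had 340 and 168, at least 1.43-fold higher, and Ccnh, the cyclin partner of Cdk7, had 1034 and 1652, a log2 ratio of -0.68, with other probe sets at -0.26 and -0.35. Among 20 spindle and kinetochore genes the median was 0.03, and Ncaph, of condensin, had 329 and 512, 1.55-fold lower on a probe set with the suffix _x, and log2 0.04 on the other.

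Markers of blood cells and of macrophages, some of which divide, differed between the same pools. Neutrophil and precursor markers had a median log2 ratio of 0.75 when each dimmer signal was raised to the floor (7 of 8 above it). At least 1.5-fold higher were 5 of the 7, against 4.54% of all genes counted in the same way, while Elane, a neutrophil protease gene, had 261 in the antagomir-122 pool and 323 in the mm-antagomir-122 pool (log2 -0.31). The list had summed signals of 35409 in the antagomir-122 pool and 26634 in the mm-antagomir-122 pool. Lcn2, which hepatocytes also make, gave 27383 and 24173 of these sums. Macrophage markers had a median of 0.44 (8 of 8 above the floor, all above 0), with sums of 46541 and 33328, and lymphocyte markers a median of 0.59 (6 of 7), with sums of 6677 and 4055. Ighm gave 2784.5 and 1309 of the lymphocyte sums, on a probe set with the suffix _s. Its other measured probe sets had log2 ratios of 0.27, 0.42 and 0.08. No marker was listed at 0, and Camp and Cd3e were under the floor. Erythroid precursor markers had a median of 0.19 over 4 genes, with sums of 2833 and 2761, and 4 hepatocyte markers had 0.03, with sums of 116726 and 114903. The hepatocyte signals, from 24808 to 34477, were near the top of the scale, so their median does not show equal hepatocyte content. The core proliferation genes, a list from general knowledge, include Cdk1, Mki67, Ccnb2 and Ccna2. Of the 16 measured, 7 were above 0 (43.8%, against 50.3% of all genes) and 9 below, with a median of -0.05. The part of blood cells and macrophages in these ratios was not tested. In bulk liver RNA more cells of a type and more RNA per cell cannot be told apart.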

How the data were processed

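The authors hybridised biotin-labelled cRNA from 1 pool of 3 livers per group, per the labels, and deposited 1 linear intensity for each probe set. MAS5 is named in the submitters' processing notes; its version is not given in the sources used here. The number of arrays limits the precision. Of 45101 probe sets, 64 were controls, 34945 had 1 gene in the platform annotation, 932 several and 9160 none. RefSeq gene identifiers (GRCm38.p6) matched 34741 of these 34945, including all 91 genes here, and changed 0 symbols. Ratios are log2 of antagomir-122 over mm-antagomir-122 intensity, with no pseudocount. A fold with 1 signal under the floor was taken against the floor and given as a lower bound, leaving out measurement spread; counts past 1.5-fold use deposited signals unless stated.

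The genes, role groups and lists were chosen from general knowledge with earlier results of these data known. The text names every measured gene, the core proliferation genes under the floor and those with 1 signal above it, and other cell cycle genes past 1.5-fold. Ccnb1 was not analysed here, having no single-gene probe set. Alternatives were median centring, quantile normalization, loess (span 0.3), hybridization control scaling, floors at the 40th and 80th percentiles or none, averaging a gene's measured probe sets, omitting suffixed ones, a pseudocount of 16, and thresholds of 1.4-fold and 2-fold. The calculation was tested on simulated data (Python 3.11.15, pandas 2.3.3, NumPy 2.4.6, statsmodels 0.14.6).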

Additional observations from a re-analysis of the deposited data

How the results depend on the processing

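As deposited, 5 genes were at least 1.5-fold higher and 0 lower. The higher count was 11 with scaling on the hybridization controls (16.9% of all genes), 8 with no floor, 3 with the mean over probe sets (4.33%), 3 without suffixed probe sets (5.45%) and 2 at 2-fold (0.83%). An alternative chosen after seeing the data, a second measured probe set on the same side of 0, left 2, Cdk16 and Cdc27, which had another at -0.39. E2f5 failed it, and Cdc42bpa and Cdc42se2 had no second one. The lower count was 1 with median centring (3.75%), quantile normalization (3.22%) or loess correction (3.28%), 2 at 1.4-fold (4.85%), 3 with a floor at the 40th percentile (4.03%) and 6 with no floor. With no floor, 8 of 91 genes (8.79%) were higher and 6 (6.59%) lower, against 15.2% and 9.44% of all genes. The median of all members was -0.081 with median centring, which moves that of all genes to -0.054. On the hybridization controls the medians were 0.25 for all members, 0.25 for G1 and G1/S, 0.095 for replication, 0.35 for G2 and mitosis, 0.16 for other Cdk genes and 0.35 for other roles, by construction 0.27 above those deposited. The G1 and G1/S median was 0.098 with quantile normalization and 0.11 with the mean over probe sets. The G2 and mitosis median was -0.025 with a floor at the 40th percentile, -0.047 with no floor and 0.21 without suffixed probe sets; the first 2 take in dimmer genes. A median counted as moved where it shifted by more than the probe set spread of 0.28 allows for its number of genes. Genes on the same array are not replicates, so this rule only labels shifts and does not measure the error of a median. No gene past 1.5-fold changed sign under an alternative that measured it. No paired analysis was possible because each group had 1 array. Signals near the floor limit what the mitotic genes can show.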

Other observations

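Probe sets of the same gene often differed in direction for these genes. Among 25 members where at least 1 more probe set passed the floor, 11 had the same sign on the brightest and the second (44%), against 2403 of 3860 genes overall (62.3%), and their spread was 0.37 against 0.28 on the log2 scale. These values are given without a test.

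Cdk13, with a log2 ratio of 0.03 on its brightest probe set, had another just under the floor by its mean with signals of 329 in the antagomir-122 pool and 141 in the mm-antagomir-122 pool, at least 1.38-fold higher against the floor. Plk4, the kinase of centriole duplication, had 3 probe sets under the floor, all with the lower signal in the antagomir-122 pool: 125 and 207, 59.2 and 121, and 35.2 and 79.4. These 2 genes were picked with their values in view.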
